A study of Homo sapiens with 3 samples.

Results

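The class 3 semaphorins, the neuropilins and the plexins were followed in UM-UC-3, an established human bladder cancer cell line, after knockdown of the long noncoding RNA DANCR. The 10 genes described are the ligands SEMA3A, SEMA3B, SEMA3C, SEMA3D and SEMA3F, the co-receptors NRP1 and NRP2 and the receptors PLXNA1, PLXNA2 and PLXND1. All 35 probe sets that the array annotation assigned to 1 of these genes alone were taken, of 41091 such probe sets for 19775 genes. The members were chosen by family and selected on intensities and ratios to the control already known from these 3 arrays, so every difference given here is a description and none is a test. Cells were transfected with a negative control siRNA, DANCR siRNA1 or DANCR siRNA2, each at 75 nM, and RNA was taken after 48 h and hybridised to Affymetrix arrays. There was 1 array in each of the 3 groups, no replicate check was possible, and the number of arrays limits the precision. All cells received an siRNA with the same transfection reagent, and a group without siRNA was not analysed here. RNA came from whole cultures, so fewer cells expressing a gene and less RNA per cell cannot be told apart.

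Class 3 semaphorins are secreted guidance proteins, first known for repelling growing axons and also studied in tumours for effects on cell migration and on vessels. Most of them bind a neuropilin, which has only a short cytoplasmic tail, and signal through an A-type or D-type plexin held in the same complex. The plexin carries a GTPase-activating domain that acts on small GTPases of the RAS and RAP families and loosens adhesion and actin structure in the responding cell. Neuropilins also bind members of the VEGF family, so both kinds of ligand meet at the same co-receptors.

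The strands of the siRNAs are shown because they alone distinguish the groups. They are written 5′ to 3′ as the labels give them, with the 3′ overhang in capitals.
Control siRNA: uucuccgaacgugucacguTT
DANCR siRNA1: gcguacuaacuuguagcaaTT
DANCR siRNA2: gagcuagagcagugacaauTT
The strands had 19 bases before the overhang, with a GC content of 52.6% in the control, 42.1% in siRNA1 and 47.4% in siRNA2. The DANCR probe set had an intensity of 671 in the control, 116 under siRNA1 and 126 under siRNA2. DANCR was therefore at 17.3% and 18.8% of the control value on the siRNA arrays.

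The bases before the gene starts of SEMA3C and PLXNA1 are shown because SEMA3C was the only ligand besides SEMA3A that was higher on both of its measured probe sets with both siRNAs, and PLXNA1 was the receptor with the largest difference between the siRNA arrays. The RefSeq table (GRCh38.p14) held windows for 8 of the 10 genes. SEMA3A and NRP1 were not matched. Each window holds the 250 bases before a start, 5′ to 3′ on the gene's strand, with the letters GGGCGG or their reverse complement, a GC box, in capitals.
SEMA3C outer start, chr7:80922390-80922639, minus strand: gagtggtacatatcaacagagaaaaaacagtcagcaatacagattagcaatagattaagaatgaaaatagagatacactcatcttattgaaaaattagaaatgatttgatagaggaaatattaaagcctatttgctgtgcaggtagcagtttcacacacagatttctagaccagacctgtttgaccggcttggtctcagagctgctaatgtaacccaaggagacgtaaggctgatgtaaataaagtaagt
SEMA3C inner start, chr7:80919052-80919301, minus strand: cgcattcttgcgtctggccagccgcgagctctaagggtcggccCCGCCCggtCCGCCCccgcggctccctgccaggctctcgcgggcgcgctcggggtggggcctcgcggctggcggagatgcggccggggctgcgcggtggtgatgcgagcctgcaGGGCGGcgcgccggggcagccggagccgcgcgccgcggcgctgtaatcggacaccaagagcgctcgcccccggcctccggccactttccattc
PLXNA1, chr3:126982865-126983114, plus strand: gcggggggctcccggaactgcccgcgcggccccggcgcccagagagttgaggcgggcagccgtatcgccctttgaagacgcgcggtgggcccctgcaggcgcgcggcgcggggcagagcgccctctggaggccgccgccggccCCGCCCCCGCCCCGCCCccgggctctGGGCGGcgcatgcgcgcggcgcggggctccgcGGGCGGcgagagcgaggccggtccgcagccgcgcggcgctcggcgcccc
The SEMA3C windows were unlike each other. The outer had a GC content of 36.4%, 2 CpG dinucleotides and no GC box, and the inner had 77.6%, 39 CpG dinucleotides and 3 GC boxes. The PLXNA1 window had a GC content of 84.4%, 46 CpG dinucleotides and 5 GC boxes, counting overlapping matches on both strands.

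Some of the members' 15 windows overlap, since several starts belong to 1 gene. Of the 15, 10 held a GC box, against 42.6% of all 35116 windows of the same length. The letters GCGNGGGCG, a binding sequence of EGR transcription factors that can overlap a GC box, were in 7 of the 15 windows and in 8.41% of all windows. The inner SEMA3C window and the PLXNA1 window were among the 7. No member window held TATAAA, the TATA box, or CACGTG, an E-box, which were in 10.7% and 6.34% of all windows. The median GC content was 70% in the members' windows and 58% in all windows, so matches to GC-rich letters were counted on unequal base composition. A match describes letters only, and nothing in these arrays measured binding there.

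Intensities are the authors' values on a linear scale. Values under the median of all values, an intensity of 10.5, were treated as a floor, and a gene counted as measured when at least 1 of its probe sets was above the floor on at least 1 array. Of the 10 genes, 7 were measured, with 15 of their probe sets above the floor. SEMA3B, SEMA3D and PLXNA2 were not. The brightest probe set stood for its gene, and intensities of different probe sets are not compared with each other. In 11 of the 35 probe sets the value was equal on all 3 arrays (relative tolerance 1e-09), which is 31.4%, against 29.6% of all single-gene probe sets. Among the 15 above the floor 3 were equal, against 13.2% of all single-gene probe sets above the floor. Equal values give a log2 ratio of exactly 0, and such a ratio does not show that the RNA amount was the same.

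The arrays had mean intensities of 95.3 to 96.5. The 3′/5′ intensity ratio of ACTB, a sign of RNA integrity and amplification, was 11.9 in the control, 11.8 under siRNA1 and 14.4 under siRNA2, while for GAPDH it was 1.25, 1.29 and 1.35. Of 15 urothelial and epithelial markers with a probe set, 9 were below the floor on all arrays, among them all 4 uroplakins, KRT5, KRT20, EPCAM and CDH1. The simple epithelial keratin KRT18 was at 1315 in the control, 711 under siRNA1 and 1022 under siRNA2, and the intermediate filament VIM at 5322, 4412 and 4861. The other measured markers did not all go that way: of 6 epithelial markers 3 were lower and 1, PPARG, higher with both siRNAs, and of 4 mesenchymal markers 2 were lower and 1, FN1, higher with both. GATA3 was at 20.2 in the control, 20.2 under siRNA1 and 35.2 under siRNA2. Markers of cell types that also use semaphorins were sparse. Of 7 endothelial markers 3 were measured, all lower with both siRNAs, as were 23.8% of all measured genes. Their summed intensities were 68.5 in the control, 42.2 under siRNA1 and 54.4 under siRNA2. TIE1 among them was at 30.9, 10.1 and 19.5. It was at least 2.94-fold lower under siRNA1, where it was below the floor, and 1.58-fold lower under siRNA2. ESAM lay near the floor, at 12.5, 12.3 and 12.3, a log2 ratio of -0.03 with each siRNA. CDH5, TEK, VWF and CLDN5 were below the floor. Of 6 neuronal markers 3 were measured, with sums of 640 to 1095 carried by the tubulin TUBB3, while SYT1, NEFL and MAP2 were below the floor. Sums were 69.7 to 78.0 for 2 of 4 fibroblast markers and 33.7 to 38.8 for 2 of 5 leukocyte markers, with DCN, LUM, PTPRC, CD14 and LYZ below the floor. The part of these array differences in the results was not tested.

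Of the ligands, SEMA3A was higher with both DANCR siRNAs. It encodes the semaphorin best known for collapsing axonal growth cones through NRP1 and A-type plexins. Its brightest probe set, 206805_at, had an intensity of 29.8 in the control, 81.5 under siRNA1 and 124 under siRNA2. Both siRNA arrays were above the control, by 2.73-fold and 4.15-fold, which are log2 ratios of 1.45 and 2.05. SEMA3A was the only member at least 2-fold from the control, and it was so with both siRNAs. That is 1 of 7 measured members, where 3.62% of all 12447 measured genes were 2-fold from the control with siRNA1, 3.36% with siRNA2 and 0.996% in the same direction with both. Higher in both were 0.715% of all measured genes, and 1.1% of the 4186 genes with a mean intensity of 50 to 200, the range in which this probe set lies. The gene was chosen for this pattern, so these shares are background only. Ranked by the smaller of the ratios to the control on the brightest probe sets, SEMA3A was number 12 among all measured genes. The rank comes from the same ratios and is a description too.

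The other SEMA3A probe sets were dim and gave smaller differences in the same order. On 244163_at the intensity was 11.5 in the control, 15.5 under siRNA1 and 17.9 under siRNA2, just above the floor in the control. This is 1.34-fold and 1.55-fold higher than the control, short of 2-fold with either siRNA. On 244849_at the values were 3.83, 4.20 and 5.17, all below the floor, so no ratio is given. The size of the SEMA3A difference therefore rests on 1 probe set, and by the median of both measured probe sets the log2 ratio was 0.94 with siRNA1, under 2-fold, and 1.34 with siRNA2. The siRNA2 array, on which SEMA3A was highest, was also the array with the highest ACTB 3′/5′ ratio, and the part of RNA quality in the result was not tested.

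SEMA3C, a ligand that also signals through NRP2 and PLXND1 in heart and vessel development, was slightly higher with both siRNAs. Its brighter probe set, 203789_s_at, had an intensity of 127 in the control, 138 under siRNA1 and 165 under siRNA2, which is 1.09-fold and 1.30-fold the control. The dimmer probe set, 203788_s_at, was at 10.8, 13.5 and 16.9, with log2 ratios of 0.33 and 0.65 against 0.12 and 0.38 on the brighter. Both siRNA arrays lay above the control on both probe sets, and none of these differences reached 2-fold. All 3 probe sets of SEMA3A and both of SEMA3C thus ordered the arrays alike, control lowest and siRNA2 highest. No other member probe set had that order, and 4 of these 5 were above the floor, out of 15 member probe sets above it. SEMA3A and SEMA3C were 2 of the 6 members with 2 or more probe sets above the floor. The same order was found in 12.1% of all single-gene probe sets above the floor, and on every such probe set in 3.83% of the 6008 genes with 2 or more.

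SEMA3F, a ligand that acts mainly through NRP2 and is known as a candidate tumour suppressor, was nearly level. Its brightest probe set was at 156 in the control, 143 under siRNA1 and 143 under siRNA2, a log2 ratio of -0.12 with each. The second, 209730_at, gave 28.2 on all 3 arrays, and the third gave 7.23 on all 3, below the floor. SEMA3B, which lies near SEMA3F in the genome and is likewise a candidate tumour suppressor, was below the floor at 9.20, 9.20 and 10.0. A further probe set that the annotation shares between SEMA3B and MIR6872 was at 13.5 on all arrays and is not assigned to either gene. SEMA3D, a ligand studied in heart and vessel development, had 2 probe sets with intensities of 1.26 to 2.09, far below the floor on every array.

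**Figure D1:**
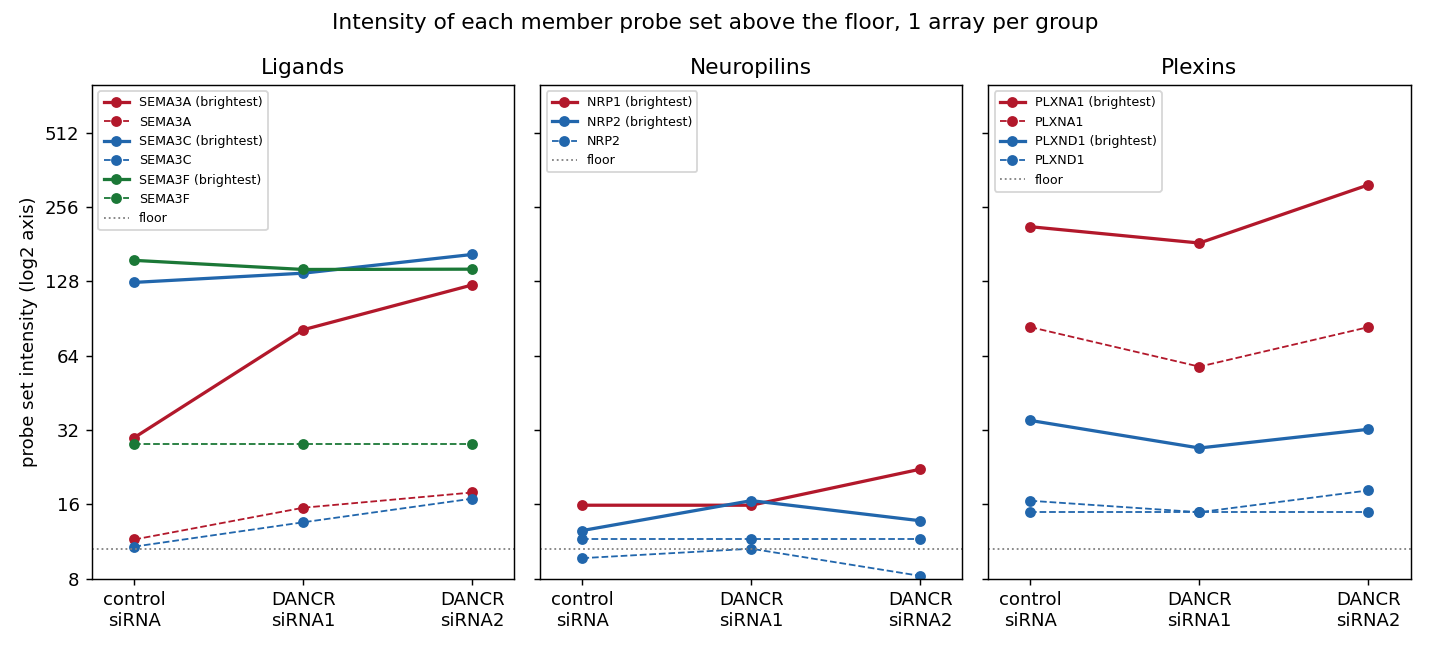
Intensity (log2 axis) of the 15 member probe sets above the floor on each of the 3 arrays, for ligands, neuropilins and plexins; solid lines are the probe set that stands for the gene, dashed lines the others, and the dotted line is the floor at 10.5. SEMA3A goes from 29.8 in the control to 81.5 and 124, whereas the plexins are lowest or tied for lowest with siRNA1; heights of different probe sets are not comparable as RNA amounts.

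The neuropilins were dim on all arrays. NRP1, the co-receptor for SEMA3A and for VEGF-A, had 4 probe sets, of which only 210510_s_at was above the floor. It was at 15.9 in the control, 15.9 under siRNA1 and 22.2 under siRNA2. The siRNA2 array was higher than the control by a log2 ratio of 0.48. The control and siRNA1 values were equal, which does not show equal RNA. The other 3 NRP1 probe sets had values of 2.57 to 5.73, all below the floor. NRP2, the co-receptor favoured by SEMA3F and by VEGF-C, had 11 probe sets with values of 4.20 to 16.6. Its brightest, 210841_s_at, was at 12.5, 16.6 and 13.7, highest with siRNA1, with log2 ratios of 0.40 and 0.13. A second, 223510_at, was at 11.5 on all arrays, and 222877_at passed the floor only with siRNA1, at 10.6. The remaining 8 were below the floor throughout, so a difference in either neuropilin under the floor was not detectable on these arrays.

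PLXNA1, an A-type plexin through which class 3 semaphorins signal, lay on opposite sides of the control with the 2 siRNAs. Its brightest probe set, 221538_s_at, had an intensity of 213 in the control, 183 under siRNA1 and 315 under siRNA2, with log2 ratios of -0.22 and 0.56. The second, 221537_at, was at 83.5, 57.8 and 83.5, a log2 ratio of -0.53 with siRNA1 and of 0.00 with siRNA2. The siRNA1 array was lowest on both, but the siRNA2 array was above the control on the brighter probe set alone. The remaining probe set was below the floor, at 4.50 to 5.03. The siRNA2 array again had the highest ACTB 3′/5′ ratio, and its part was not tested.

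PLXND1, the D-type plexin of vascular patterning, was a little lower with siRNA1. Its brightest probe set, 38671_at, was at 35.0 in the control, 27.1 under siRNA1 and 32.2 under siRNA2, with log2 ratios of -0.37 and -0.12. The second, 212235_at, was at 16.5, 14.9 and 18.2, so its siRNA2 array was above the control where that of the first was below. The third was at 14.9 on all arrays. PLXNA2, a further A-type plexin, had 3 probe sets at 3.21 to 8.21 and was below the floor on every array.

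Set directly against each other, the siRNA arrays differed by less than 2-fold in all 7 measured members, while 3.91% of all measured genes were 2-fold apart. PLXNA1 differed most, with a log2 ratio of siRNA1 over siRNA2 of -0.78, or 1.72-fold lower with siRNA1. SEMA3A followed at -0.60, 1.52-fold lower with siRNA1, and NRP1 at -0.48. SEMA3C and PLXND1 both had -0.25, and SEMA3F had -0.00. NRP2 was the only member with a higher value for siRNA1, at 0.27. The remaining difference between the siRNAs was thus smaller for SEMA3A than its distance from the control with either siRNA, though the ratios to the control share 1 array. Over the 7 measured members the median log2 ratio to the control was 0.00 with siRNA1, with 3 genes higher and 3 lower, and 0.38 with siRNA2, with 5 higher and 2 lower. Over all measured genes the median was 0.00 with each siRNA. Of the 7, 3 were higher with both, SEMA3A, SEMA3C and NRP2, against 29.1% of all measured genes. Lower with both were 2 of the 7, SEMA3F and PLXND1, against 23.8%. These counts use the brightest probe sets, and the second PLXND1 probe set was above the control with siRNA2.

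**Figure D2:**
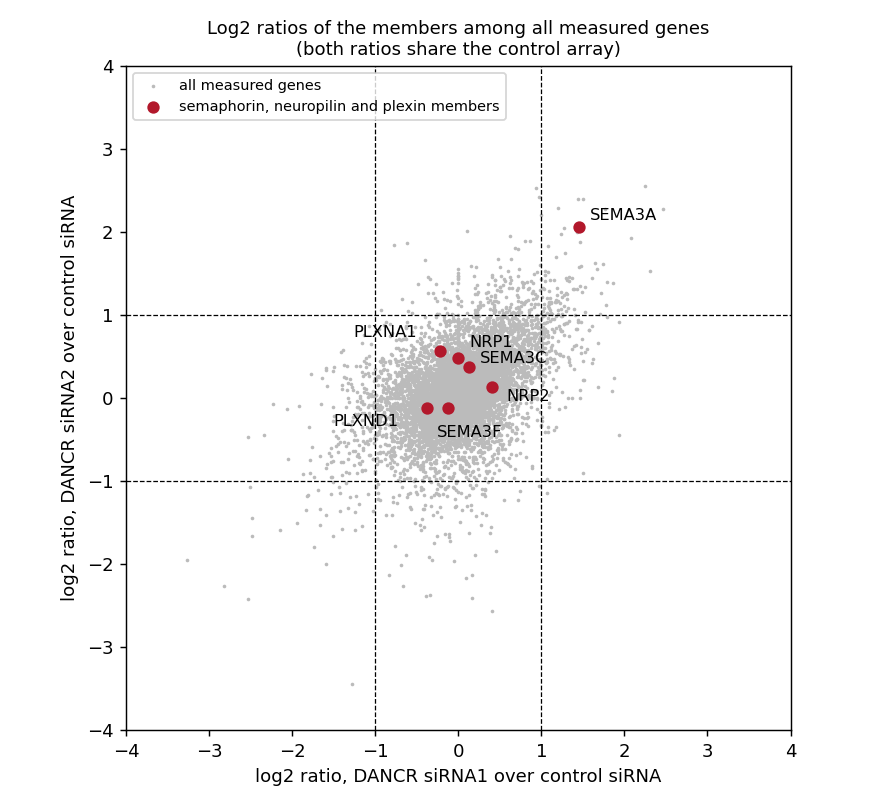
Log2 ratio to the control with siRNA1 (horizontal) and siRNA2 (vertical) for all 12447 measured genes (grey) and the 7 measured members (red); dashed lines mark 2-fold. SEMA3A, at 1.45 and 2.05, is the only member outside the central square, and both axes use the same control array.

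The other genes of the pathway were taken from lists and are described by their counts. The other class 3 semaphorins, SEMA3E and SEMA3G, were below the floor on all arrays. Of 13 semaphorins of classes 4 to 7, most of them membrane-bound, 11 were measured and none was 2-fold from the control with either siRNA. Of all measured genes, 3.62% were with siRNA1 and 3.36% with siRNA2. Their median log2 ratio was -0.15 with siRNA1, with 9 lower and none higher, and 0.00 with siRNA2, with 5 lower and 2 higher. Of all 12447 measured genes, 4917 were lower and 5257 higher with siRNA1, and 4507 lower and 5597 higher with siRNA2. SEMA5B was at 28.1 in the control, 24.7 under siRNA1 and 23.9 under siRNA2. SEMA6B was at 37.4 in the control and 33.5 with each siRNA. These values were lower than the control with both siRNAs, where SEMA3A was higher.

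Among the 6 other plexins 3 were measured, and PLXNA3, PLXNA4 and PLXNB3 were below the floor. PLXNB2, a receptor for class 4 semaphorins, was at least 2-fold lower with siRNA1 alone, where 3.62% of all measured genes were 2-fold from the control. Its intensity was 69.99 in the control, 28.2 under siRNA1 and 67.9 under siRNA2, which puts siRNA1 2.48-fold and siRNA2 1.03-fold below the control. Its other probe set was below the floor. Between the siRNA arrays it was 2.41-fold lower with siRNA1, and 3.91% of all measured genes were 2-fold apart there. With 1 array each that difference was not tested. The median log2 ratio of the 3 plexins was -0.04 with each siRNA.

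Of the VEGF ligands and receptors that share neuropilins, 6 of 7 genes with a probe set were measured. None was 2-fold from the control, against 3.62% of all measured genes with siRNA1 and 3.36% with siRNA2. The median log2 ratio was -0.19 with siRNA1 and -0.14 with siRNA2. Lower with both were 4 of the 6, against 23.8% of all measured genes, and 1, VEGFA, was higher with both. VEGFA was at 178 in the control, 238 under siRNA1 and 185 under siRNA2, though its next probe set was at 34.1, 38.5 and 31.7. VEGFC was at 101, 88.5 and 151, higher with siRNA2 alone. FLT4, among the 4, was at 11.5 in the control and not above the floor with either siRNA. PGF, placental growth factor, was at 128 in the control and 109 with each siRNA, and its second probe set gave log2 ratios of -0.18 and -0.26. FLT1, a VEGF receptor that binds PGF, was at 27.2, 23.8 and 23.3 on its brightest probe set, and its other probe sets were all below the floor. KDR, the main VEGF receptor of endothelium, was below the floor.

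Among partners at the membrane, 4 of 7 genes with a probe set were measured, with medians of -0.00 and 0.05. MET, the receptor tyrosine kinase that associates with plexins, was at 589 in the control and 629 with each siRNA, and its second probe set was at 79.5, 77.5 and 77.5, lower by 0.04 (log2). GPC1, a heparan sulfate proteoglycan, was at 40.5, 37.9 and 39.8.

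Of 6 proteases that can cleave class 3 semaphorins, 5 were measured, with medians of -0.04 and 0.02. ADAMTS1, a secreted metalloproteinase, was the only member of that list at 2-fold, and only with siRNA2, where 3.36% of all measured genes were. Its brighter probe set was at 128 in the control, 174 under siRNA1 and 340 under siRNA2, which is 1.36-fold and 2.67-fold higher. Its second probe set gave log2 ratios of 0.69 and 1.56, in the same order. FURIN, the convertase that processes class 3 semaphorins, was at 30.5 on all 3 arrays, and ADAM17, a membrane sheddase, was at 301, 293 and 306.

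Of the intracellular effectors, 28 of 30 genes with a probe set were measured, with median log2 ratios of 0.00 and 0.05. With siRNA1 14 were higher and 11 lower, and with siRNA2 also 14 and 11. The only one at 2-fold from the control was CDK5, a kinase that phosphorylates collapsin response mediators, which was lower with siRNA1. That is 1 of 28, near the 3.62% of all measured genes that were 2-fold from the control with siRNA1. Its single probe set was at 79.7 in the control, 37.5 under siRNA1 and 73.7 under siRNA2. Between the siRNA arrays, LIMK1 and MICAL1, which act on actin, were 2.36-fold and 2.02-fold lower with siRNA1. They were the only 2 of the 28 at 2-fold there, where 3.91% of all measured genes were 2-fold apart. LIMK1 was at 23.9, 18.6 and 43.9, though its second measured probe set was at 19.2, 18.5 and 18.5, and MICAL1 was at 37.4, 27.2 and 54.8. DPYSL2, the mediator that carries the SEMA3A signal to microtubules, was at 464, 375 and 400, with log2 ratios of -0.31 and -0.21. Of all the pathway lists together, no gene was 2-fold from the control with both siRNAs. Over all measured genes the share in the same direction with both was 0.996%, so none in lists this short is near the background.

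**Figure D3:**
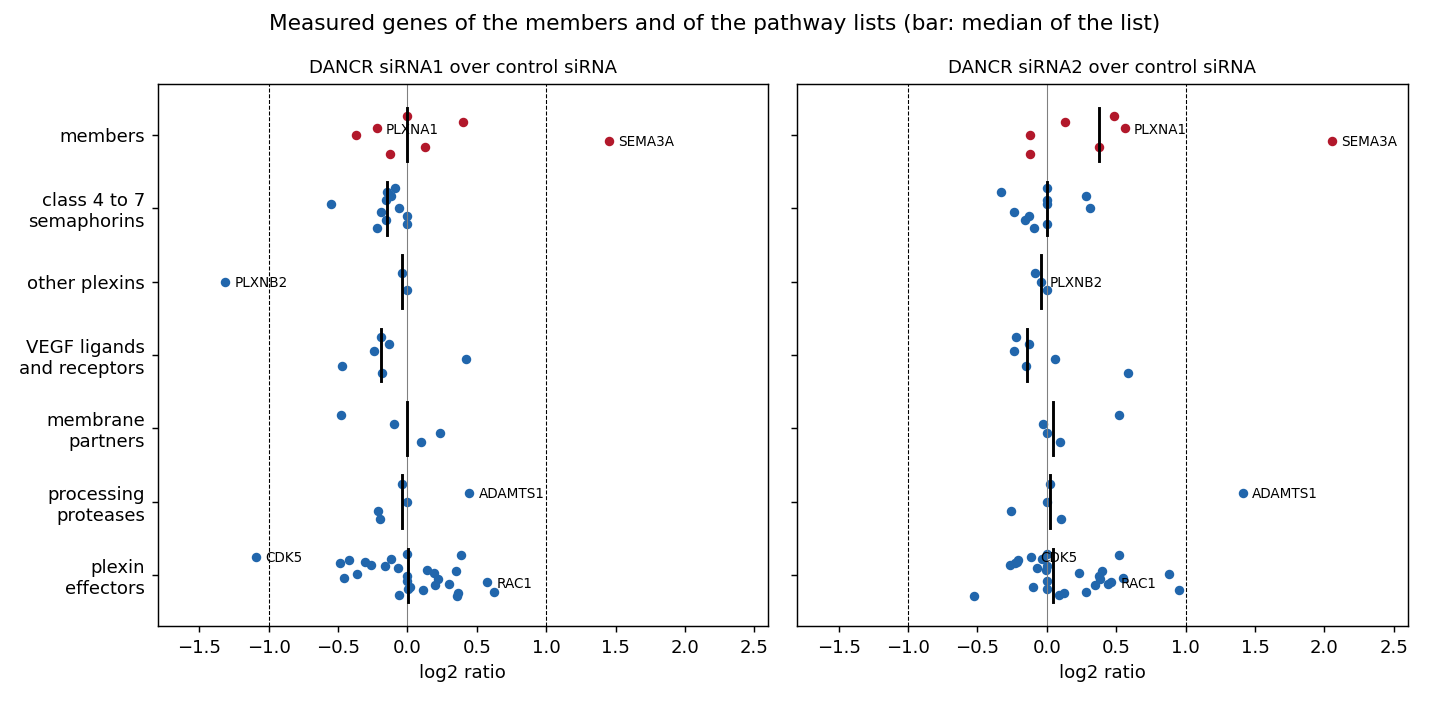
Log2 ratio to the control of each measured gene (points) with siRNA1 (left) and siRNA2 (right), for the members (red) and the lists of other pathway genes (blue); black bars are list medians and dashed lines mark 2-fold. SEMA3A lies past 2-fold in both panels, PLXNB2 and CDK5 only with siRNA1, and ADAMTS1 only with siRNA2.

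The ligand genes fall into 2 neighbourhoods that were not used to choose them. In the RefSeq table, SEMA3C, SEMA3E, SEMA3A and SEMA3D lie in that order on chromosome 7, and SEMA3F and SEMA3B lie close together on chromosome 3. The neighbours were listed after the values of SEMA3A had been seen. Between SEMA3C and SEMA3E lie HGF, CACNA2D1 and PCLO. HGF, the ligand of MET, was at 20.9 on all arrays on its brightest probe set, equal values that do not show level RNA. Its other probe sets were below the floor. CACNA2D1, a calcium channel subunit, was at 79.2 in the control, 51.2 under siRNA1 and 99.2 under siRNA2. PCLO, a scaffold protein of the presynaptic zone, was at 18.1, 35.5 and 31.2, with log2 ratios of 0.98 and 0.79, just short of 2-fold with siRNA1. SEMA3E and SEMA3D, on either side of SEMA3A, were below the floor on all arrays. On chromosome 3, GNAI2, a G protein subunit between SEMA3F and SEMA3B, was at 78.4 in the control and 80.5 with each siRNA, and GNAT1 and SLC38A3 were below the floor. Besides SEMA3A, the measured genes between SEMA3C and SEMA3D were HGF, CACNA2D1 and PCLO, and none was 2-fold from the control. The nearest neighbours of SEMA3A were not measured, so a difference shared by the region was not tested.

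**Figure D4:**
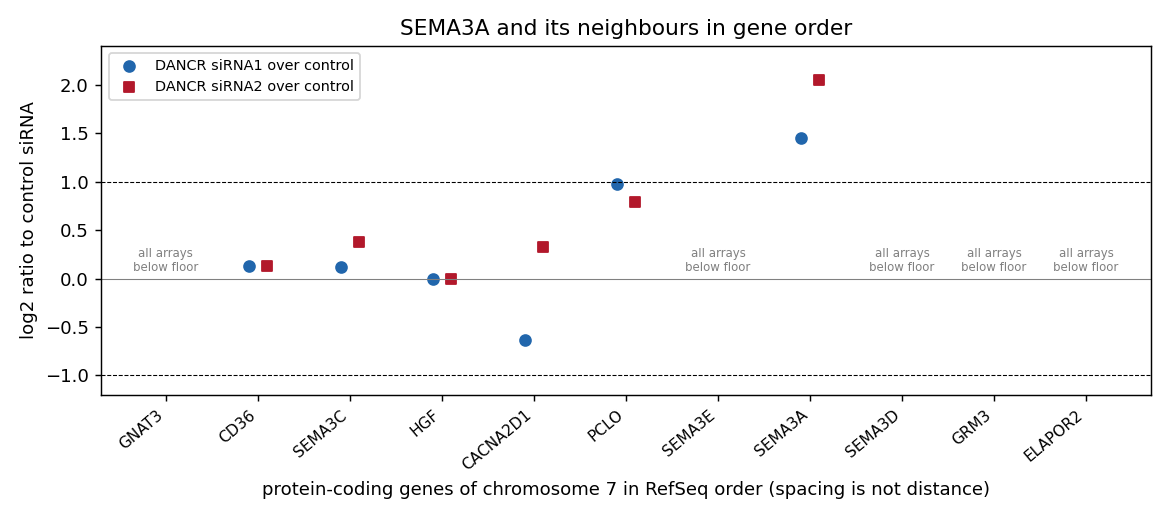
Log2 ratio to the control with siRNA1 (circles) and siRNA2 (squares) for protein-coding genes around the semaphorin genes of chromosome 7, in RefSeq gene order with equal spacing; genes below the floor on all arrays are written as such, and CD36, below the floor in the control alone, has ratios that are lower bounds. SEMA3A is at 1.45 and 2.05, PCLO at 0.98 and 0.79, and SEMA3C at 0.12 and 0.38.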

How the data were processed

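Total RNA of 3 samples was measured on 1 array each. The authors deposited linear-scale intensities, 1 value per probe set and array, scaled between arrays with a method not given in the sources used here; the submitters' processing notes name GCOS 1.4. Probe sets were assigned with the supplied annotation, and symbols were updated through RefSeq (GRCh38.p14) gene IDs. Of 54675 probe sets, 41091 named 1 gene; those naming several genes or none, and control probe sets, were left out. Values were raised to the 50th percentile, log2 ratios were taken, and the probe set with the highest mean stood for its gene. A gene was called at 2-fold. No p-value was computed. The members and lists were chosen with earlier results of these data known. Genes named are all members, pathway list genes at 2-fold from the control with either siRNA or otherwise up to 2 per list with the largest smaller ratio in 1 direction, and others for their role or position, chosen after their values were seen. Python 3.11.15, numpy 2.4.6, pandas 2.3.3 and matplotlib 3.10.9 were used. Alternatives were median-centring, quantile normalisation, a floor at the 70th percentile, no floor, the median over probe sets, leaving out _s_at and _x_at probe sets, and a 1.5-fold threshold.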

Additional observations from a re-analysis of the deposited data

Results flagged for a closer look

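PLXNA1 lay on opposite sides of the control array with the 2 siRNAs, with a log2 ratio of -0.22 with siRNA1 and 0.56 with siRNA2 on its brightest probe set. Its second measured probe set, 221537_at, gave -0.53 and 0.00, so the siRNA2 array was above the control on the brighter probe set alone. With 1 array per group the difference between the siRNAs was not tested.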

How the results depend on the processing

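SEMA3A was 2-fold higher with siRNA2 under all alternatives run, and with siRNA1 and with both siRNAs under all but the median over probe sets, where the counts of members at 2-fold were 0 with siRNA1 and 0 with both. No member was 2-fold apart between the siRNA arrays under any alternative run, and lowering the threshold to 1.5-fold gave a count of 2, PLXNA1 and SEMA3A. Of the single log2 ratios, 113 kept their side of 2-fold and 1 did not. That was SEMA3A with siRNA1, at 0.94 by the median over probe sets. By the same alternative SEMA3A with siRNA2 went from 2.05 to 1.34. Members other than SEMA3A had log2 ratios of at most 0.78 in size, so keeping their side does not show that their ratios were stable. Without _s_at and _x_at probe sets, PLXNA1 with siRNA2 went from 0.56 to 0.00 and NRP2 with siRNA1 from 0.40 to 0.00. Median-centring left these at 0.48 and 0.36. By the median over probe sets, PLXND1 with siRNA2 went from -0.12 to 0.00. The ratio of SEMA3F between the siRNA arrays changed sign under median-centring (0.04) and quantile normalisation (0.02). With the floor at the 70th percentile, an intensity of 29.8, NRP1 and NRP2 were not measured, and without _s_at and _x_at probe sets SEMA3C and NRP1 were not. No paired analysis was possible because each group had 1 array. Low signal over background limits the neuropilins, SEMA3B, SEMA3D and PLXNA2.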

Other observations

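RAC1, a small GTPase that links plexins to the actin cytoskeleton, was chosen after its values were seen. Its brightest probe set was at 1083 in the control, 1615 under siRNA1 and 1496 under siRNA2, with log2 ratios of 0.58 and 0.47. The next probe set gave 0.84 and 0.79, and a dimmer probe set gave 0.88 and 0.68. Both siRNA arrays lay above the control on all 3, short of 2-fold. Of the 28 measured effectors, 10 were higher with both siRNAs, against 29.1% of all measured genes. ROCK1, a kinase of the actin cytoskeleton, had 0.62 and 0.29 on its brightest probe set, but 0.22 and 0.00, and -0.01 and -0.11, on the other measured probe sets.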
